A study of Mus musculus with 12 samples.

Results

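The clustered protocadherins are 57 of the 17202 genes measured in the cerebral cortex of 12 mice. Members were chosen by gene symbol, as every gene of the table named Pcdha, Pcdhb or Pcdhg with its number or C-type suffix. They comprise 14 genes of the alpha cluster, 21 of the beta cluster and 22 of the gamma cluster. Pcdhb1 was not analysed here. The family was singled out with the calls of Pcdhb3 and Pcdhb17 between vehicle-treated CD and WT mice already known, so the members' values in that comparison are given as a description, without a test.

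The study asked whether co-treatment with verapamil and curcumin alters the cortex of CD mice, a model of Williams-Beuren syndrome. CD mice carry a heterozygous deletion that runs from Gtf2i to Fkbp6 in every tissue, and WT mice are their controls. Per the study's methods, CD mice were crossed with a Thy1-YFP line, in which a Thy1 promoter labels pyramidal neurons, and all mice were kept on a mainly C57BL/6J background. The 4 groups had 3 mice each. VEH-WT and VEH-CD mice drank water with DMSO, and the labels call them untreated. VERCUR-WT and VERCUR-CD mice drank curcumin at 60 mg/kg/day and verapamil at 10 mg/kg/day per the labels, from 8 weeks of age for 1 month, with sacrifice at 16 weeks. The study's methods give a lower verapamil dose and an earlier sacrifice than the labels do. They also state that treatment went on through the behavioural tests until sacrifice, which the labels' 1 month from 8 weeks does not cover.

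Protocadherins of the alpha, beta and gamma clusters are cell surface adhesion molecules of neurons. Each neuron transcribes its own combination of them by choosing among many alternative promoters, and the proteins recognise identical combinations on other membranes, which allows a neuron to tell its own branches from those of its neighbours. In the alpha and gamma clusters a variable first exon is spliced to constant exons that all genes of the cluster share, whereas a beta gene is in general a single exon. Promoter choice depends on DNA methylation and on CTCF and cohesin, which bring a promoter to a distant enhancer. The C-type genes (Pcdhac1, Pcdhac2, Pcdhgc3, Pcdhgc4 and Pcdhgc5) are regulated differently from the others and tend to be used by most neurons of a kind.

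All members lie on the plus strand of mouse chromosome 18 (GRCm38, GENCODE M21). The alpha cluster runs from position 36930184 to 37187661, the beta genes from 37294812 to 37524479 and the gamma cluster from 37661793 to 37841873. In the table the symbol Pcdha11 stands on 2 genes, which are told apart here by their identifiers, ENSMUSG00000007440 and ENSMUSG00000102206. Pcdhgb8 is annotated as a polymorphic pseudogene. Every alpha gene shares its constant exons with 13 other members and every gamma gene with 21, and the way reads on shared exons were counted is not given in the sources used here. Yet Pcdha8 averaged 29.0 normalized counts and Pcdhac2 averaged 3898, so reads on the constant exons cannot have been added in full to every alpha gene. The variable exons themselves are distinct in most members. Among windows of 100 bases, the read length, 0.373% of those of Pcdhb17 and none of those of Pcdhb3 occurred in a transcript of another gene. Such windows, on either strand, made up 99.9% of the first exon of Pcdha4, 100% of that of Pcdhga10, 95.3% of that of Pcdha11 (ENSMUSG00000102206), 65.0% of that of Pcdhgc3, 50.6% of that of Pcdhga11 and 62.3% of Pcdhb12, so the values of those 6 genes are uncertain.

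The values are reads counted per gene divided by a factor for each mouse, called normalized counts. Between 40290000 and 56480000 reads were counted per mouse, and the members made up 0.112% to 0.123% of the normalized counts. Of the 22 genes in the deleted interval, 16 were called lower in CD mice under vehicle and 16 under co-treatment, with median folds of 0.522 and 0.479. VERCUR-CD mouse 2 stood apart from the other mice. It was the highest or the lowest of all 12 for 39.4% of genes, against 7.75% to 23.4% in the other mice. It was the highest for 21 members, beside 21.5% of all genes, and the lowest for 1 member, beside 17.9% of all genes. Summed normalized counts of 10 immediate early genes, which neuronal activity induces, ranged from 57084 to 95492 in VEH-WT mice and from 16364 to 54496 in the 9 other mice.

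The gamma cluster held most of the family's normalized counts in these cortices, and a few C-type genes held most of those. On average over the 12 mice the gamma cluster held 74.4% of the members' normalized counts, the alpha cluster 16.5% and the beta cluster 9.12%. The 5 C-type genes alone held 54.3%. Levels are compared between genes per kilobase of exonic sequence of the gene model. Pcdhgc4 had the highest level, at 1736 normalized counts per kb, followed by Pcdhgc5 at 1416, Pcdhgc3 at 1141 and Pcdhac2 at 662. The remaining C-type gene, Pcdhac1, had only 68.7.

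The highest of the genes other than the C-types was Pcdhga11 at 360 normalized counts per kb, then Pcdhga6 at 285 and Pcdhga3 at 222. In the alpha cluster the order was led, after Pcdhac2, by Pcdha12 at 182 and Pcdha5 at 125 normalized counts per kb. Pcdhb9, Pcdhb17 and Pcdhb12 were the highest beta genes, at 161, 133 and 124. The lowest beta genes were Pcdhb4 at 21.8, Pcdhb6 at 21.7 and Pcdhb2 at 19.5. Lowest of all were Pcdhgb8 at 11.7 and Pcdha8 at 5.42, a level 320-fold under that of Pcdhgc4. The low end of the alpha cluster also held Pcdha1 at 27.3 and Pcdha2 at 45.2, and that of the gamma cluster Pcdhgb5 at 56.8 and Pcdhgb4 at 65.4.

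When the 57 genes were placed in order of level, 50 of the 56 neighbouring pairs differed by less than the larger SD between mice of a group. The 6 steps that exceeded it separated Pcdhgc5 from Pcdhgc3, Pcdhgc3 from Pcdhac2, Pcdhac2 from Pcdhga11, Pcdhga11 from Pcdhga6, Pcdhga6 from Pcdhga3 and, at the bottom, Pcdhgb8 from Pcdha8. Pcdhgc4 and Pcdhgc5 did not differ beyond their spread. By kind, the median level was 198 normalized counts per kb for gamma-A genes, 111 for gamma-B genes, 72.6 for alpha genes other than the C-types and 42.2 for beta genes. Per kb of exon that no other gene on the same strand covers, the first 3 places were the same, whereas Pcdha4 moved from rank 26 to rank 4. Only 494 of its 5768 exonic bases are free of other genes on that strand. This measure leaves out the shared constant exons, so Pcdha12 rose from 182 to 391 normalized counts per kb while Pcdhb9 stayed at 161. Pcdhb9 fell from rank 16 to 26 and Pcdhb17 from 19 to 29. The medians by kind, and the distance of beta genes from the others, thus depend on the length used.

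**Figure D1:**
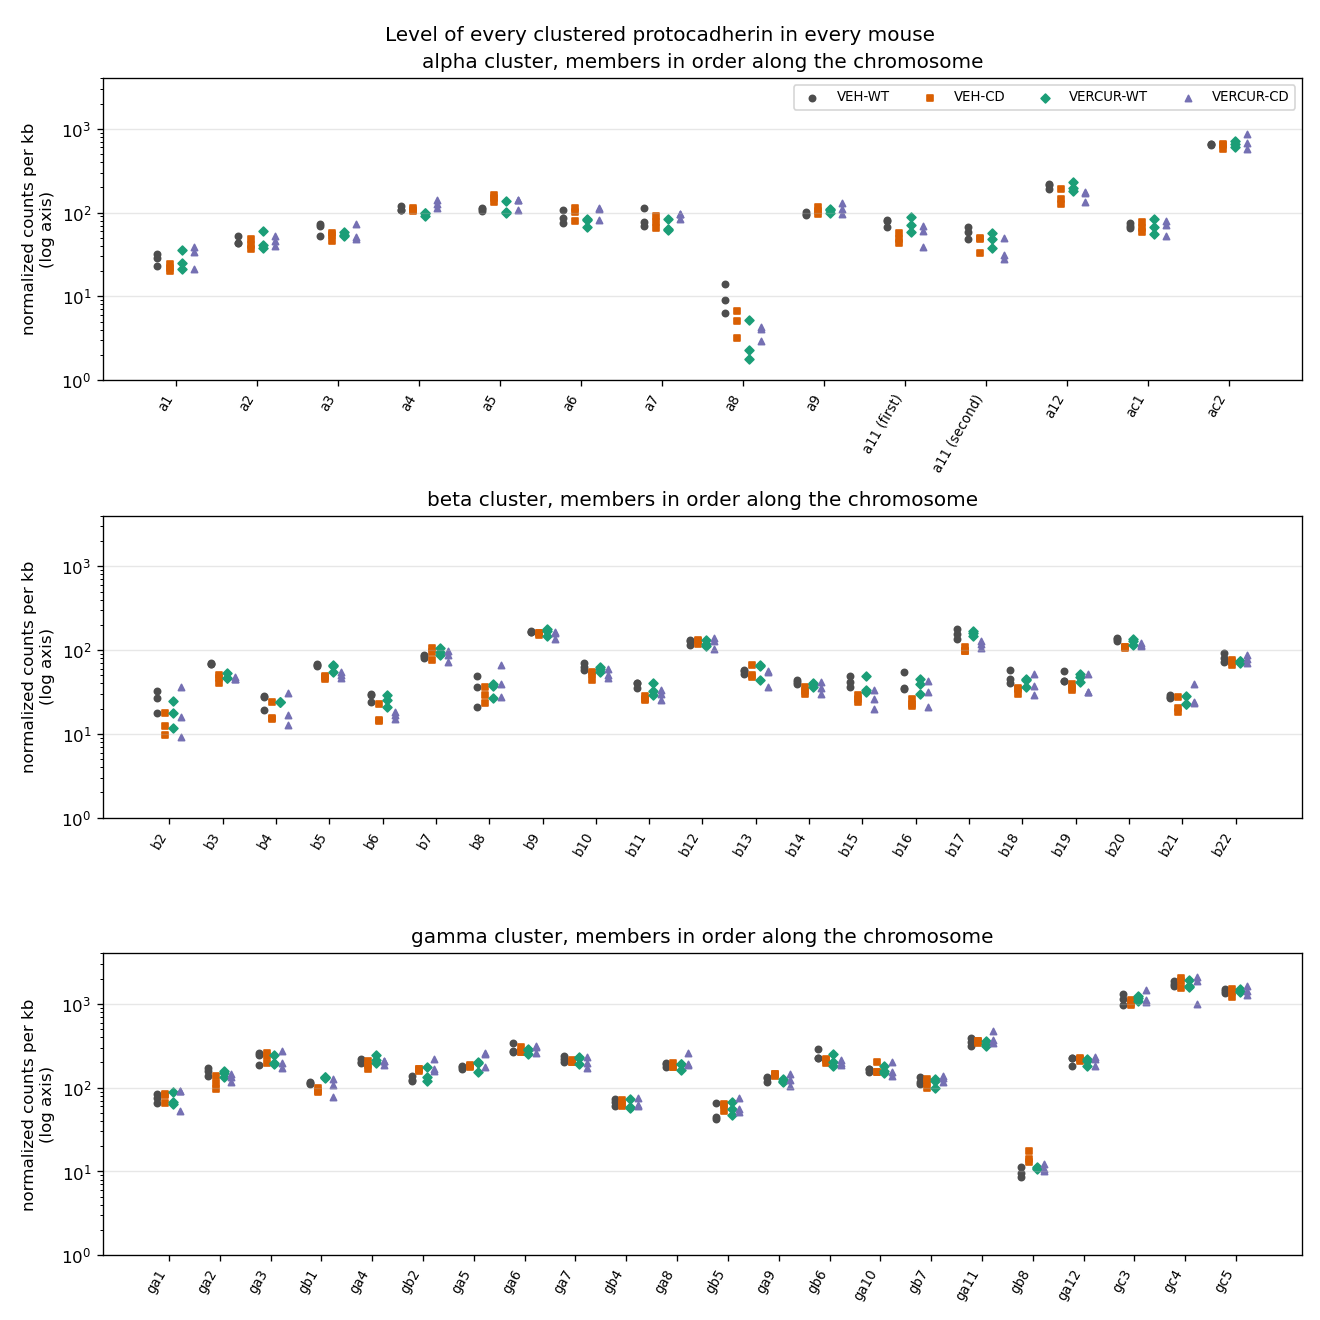
Level of each of the 57 members in every mouse, in normalized counts per kb of exon on a log axis, with members in their order along the chromosome (a11 appears as first and second, for the 2 genes named Pcdha11 in chromosomal order). The C-type genes Pcdhgc3, Pcdhgc4, Pcdhgc5 and Pcdhac2 sit above all others, and Pcdha8 and Pcdhgb8 lie lowest.

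Within a group, members varied to different degrees. The coefficient of variation between mice of a group, pooled over the 4 groups, had a median of 16.4% in the alpha cluster, 11.8% in the beta cluster and 12.1% in the gamma cluster. Pcdhb20 (5.23%), Pcdha4 (6.58%), Pcdhb5 (6.95%) and Pcdhb3 (7.01%) were the steadiest. Pcdhb2 (44.3%), Pcdha8 (41.4%) and Pcdhb8 (33.3%) varied most, and all 3 were at rank 47 or lower of 57 by level.

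The question of the first comparison was how CD mice differ from WT mice under vehicle. In it, beta genes were lower in CD mice as a cluster, while the gamma cluster and the C-type genes lay near the level of WT mice. Of the 21 beta genes, 19 had a log2 fold change below 0, with a median of -0.402, which is a fold of 0.757. The medians were -0.132 for the alpha cluster, -0.013 for the gamma cluster and -0.065 for the 5 C-type genes, against -0.003 over all genes, of which 50.7% were below 0. Since the tissue is bulk cortex, fewer cells of a type and less RNA per cell cannot be told apart.

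The shift of the beta cluster could be read in each mouse. The median over the 21 beta genes of log2(normalized count + 1), taken relative to the mean of VEH-WT mice, was -0.456, -0.295 and -0.444 in the 3 VEH-CD mice, while VEH-WT mice lay between -0.024 and 0.073. Summed over the cluster, VEH-WT mice had 5802 ± 369 normalized counts (SD, n = 3) and VEH-CD mice 4617 ± 211, and the highest VEH-CD mouse (4854) was below the lowest VEH-WT mouse (5539). Immediate early gene sums lay between 57084 and 95492 in these VEH-WT mice and between 16364 and 38167 in these VEH-CD mice. Gamma sums overlapped, at 42671 ± 1516 in VEH-WT mice and 41804 ± 399 in VEH-CD mice.

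Pcdhb3 and Pcdhb17 were the members whose call singled out the family (limma, adjusted p under 0.05 and a rise or fall of more than 25%). That rule called 2 of 57 members and 0.257% of all 17111 genes tested. Normalized counts of Pcdhb3 were 261, 268 and 261 in VEH-WT mice and 155, 193 and 176 in VEH-CD mice. Those of Pcdhb17 were 636, 723 and 832 in VEH-WT mice and 456, 513 and 449 in VEH-CD mice. The groups did not overlap in either gene, and the folds were 0.663 and 0.651. With each mouse left out in turn 0 to 2 members were called, and with the replicate number as a block 0 were.

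In the same comparison, 13 beta genes were lower in all 3 VEH-CD mice than in every VEH-WT mouse, as were 2 alpha and 3 gamma genes. Over all genes 11.4% were. Besides Pcdhb3 and Pcdhb17 the 13 were Pcdhb5, Pcdhb6, Pcdhb9, Pcdhb10, Pcdhb11, Pcdhb14, Pcdhb15, Pcdhb16, Pcdhb18, Pcdhb19 and Pcdhb20. Pcdhb5 was at 233 ± 4.79 normalized counts in VEH-WT mice and at 169 ± 8.24 in VEH-CD mice (SD, n = 3). Pcdhb2 (log2 fold change -0.92) and Pcdhb16 (-0.80) were furthest down, whereas Pcdhb7 (0.13) and Pcdhb12 (0.01) were the beta genes above 0. No beta gene was higher in all 3 VEH-CD mice, against 9.28% of all genes, while Pcdha5, Pcdhgb2, Pcdhga9 and Pcdhgb8 were. Beta genes in general have a single exon, although the annotation also gives Pcdhb6 and Pcdhb8 a short first exon, of 142 and 185 bases. The 371 other protein-coding genes whose annotated transcripts all have 1 exon had a median of 0.041.

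**Figure D2:**
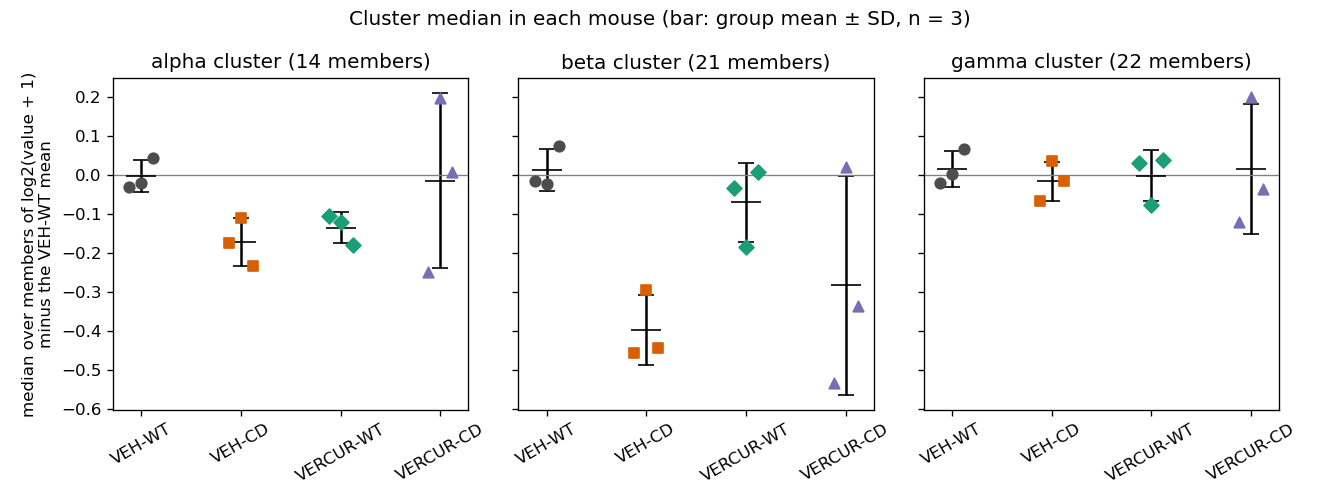
Median over the members of each cluster of log2(normalized count + 1) minus the VEH-WT mean, for every mouse, with the group mean and SD (n = 3). In the beta cluster the 3 VEH-CD mice lie between -0.456 and -0.295, and VERCUR-CD mouse 2 (0.019) lies apart from the other VERCUR-CD mice (-0.534 and -0.335).

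VERCUR-CD and VERCUR-WT mice share no animal with the vehicle groups, so the means of this genotype contrast come from other mice than those of the vehicle contrast. The fit over all 12 mice shares 1 estimate of the spread, however, so the co-treated mice entered the calls that singled out the family. Beta genes tended below 0 in them as well, by less. Of the 21 beta genes 16 were below 0, with a median of -0.168 (fold 0.890), against a median of 0.076 in the alpha cluster, 0.042 in the gamma cluster, 0.005 among the C-type genes and 0.004 over all genes, of which 48.4% were below 0. The other single-exon genes had a median of -0.027. No member was called in limma's test, against 0.146% of all genes, and 10 members had an unadjusted p under 0.05, against 4.1% of all genes. These were 6 lower and 4 higher members. The study's methods name a correction by coefficient of variation without describing how it was done. As a guess at it, groups of high variation were trimmed of their most distant value, a step that narrows the spread by construction. It called 8 of 57 members and 2.62% of all genes. The same step called 5.68% of all genes and 14 members between VEH-CD and VEH-WT mice, 4.91% and 10 between VERCUR-CD and VEH-WT mice, 1.41% and 3 between VERCUR-CD and VEH-CD mice, 3.79% and 2 between VERCUR-WT and VEH-WT mice, and 2.88% and 1 in the interaction of genotype and treatment.

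VERCUR-CD mouse 2 weighed on this comparison. Beta medians relative to VEH-WT were -0.534 and -0.335 in VERCUR-CD mice 1 and 3 and 0.019 in mouse 2, and they were -0.034, -0.185 and 0.007 in VERCUR-WT mice. Without VERCUR-CD mouse 2 the cluster's median was -0.278, with 19 of 21 beta genes below 0 and 8 with an unadjusted p under 0.05, against 5.17% of all genes. The alpha and gamma medians then lay at -0.062 and -0.064. Without VERCUR-CD mouse 1 the beta median was -0.052, with 15 below 0 and 2 with an unadjusted p under 0.05, against 8.49% of all genes. The alpha and gamma medians were then 0.166 and 0.119. The direction of the beta median was the same with each mouse left out in turn, and its size was not.

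Pcdhb17 was the beta gene with the smallest p value in co-treated mice. Its normalized counts were 779, 680 and 746 in VERCUR-WT mice and 496, 598 and 552 in VERCUR-CD mice, so that no CD mouse reached a WT mouse. The fold was 0.746 (log2 fold change -0.42, SE 0.11), with an adjusted p of 0.489 in limma's test. Under vehicle its log2 fold change was -0.62, and the interaction of genotype and treatment, which contains that value, was 0.20 (SE 0.15).

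Pcdhb6, a low beta gene, had 108, 79.6 and 96.6 normalized counts in VERCUR-WT mice and 68.0, 63.0 and 55.8 in VERCUR-CD mice. Its log2 fold changes were -0.59 (SE 0.19, adjusted p = 0.993 in limma's test) under co-treatment and -0.70 under vehicle. The study lists Pcdhb6 among its most strongly lowered genes in VEH-CD mice. The fit to all values here did not call it under vehicle, at a fold of 0.617. The trimming of distant values, which narrows the spread by construction, did call it there. Pcdhb6 and Pcdhb17 were the only beta genes whose co-treated groups did not overlap. Pcdhb15 went from 107 ± 26.5 to 73.5 ± 18.4 normalized counts (SD, n = 3), and Pcdhb5 from 220 ± 21.3 to 181 ± 15.3, with overlap in both. Neither passed the test, with an adjusted p of 1.00 each in limma's fit.

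Pcdhb3 had another pattern, in which VEH-WT mice stood above the 3 other groups. Its normalized counts were 177, 177 and 203 in VERCUR-WT mice and 181, 173 and 170 in VERCUR-CD mice, next to at least 261 in each VEH-WT mouse. Between co-treated CD and WT mice the log2 fold change was -0.08 (SE 0.11, adjusted p = 1.00). The interaction, which contains the vehicle contrast that chose this gene, was 0.51 (SE 0.15). VEH-WT mice were also the group with the highest immediate early gene sums, and the part of that difference in the level of Pcdhb3 was not tested.

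**Figure D3:**
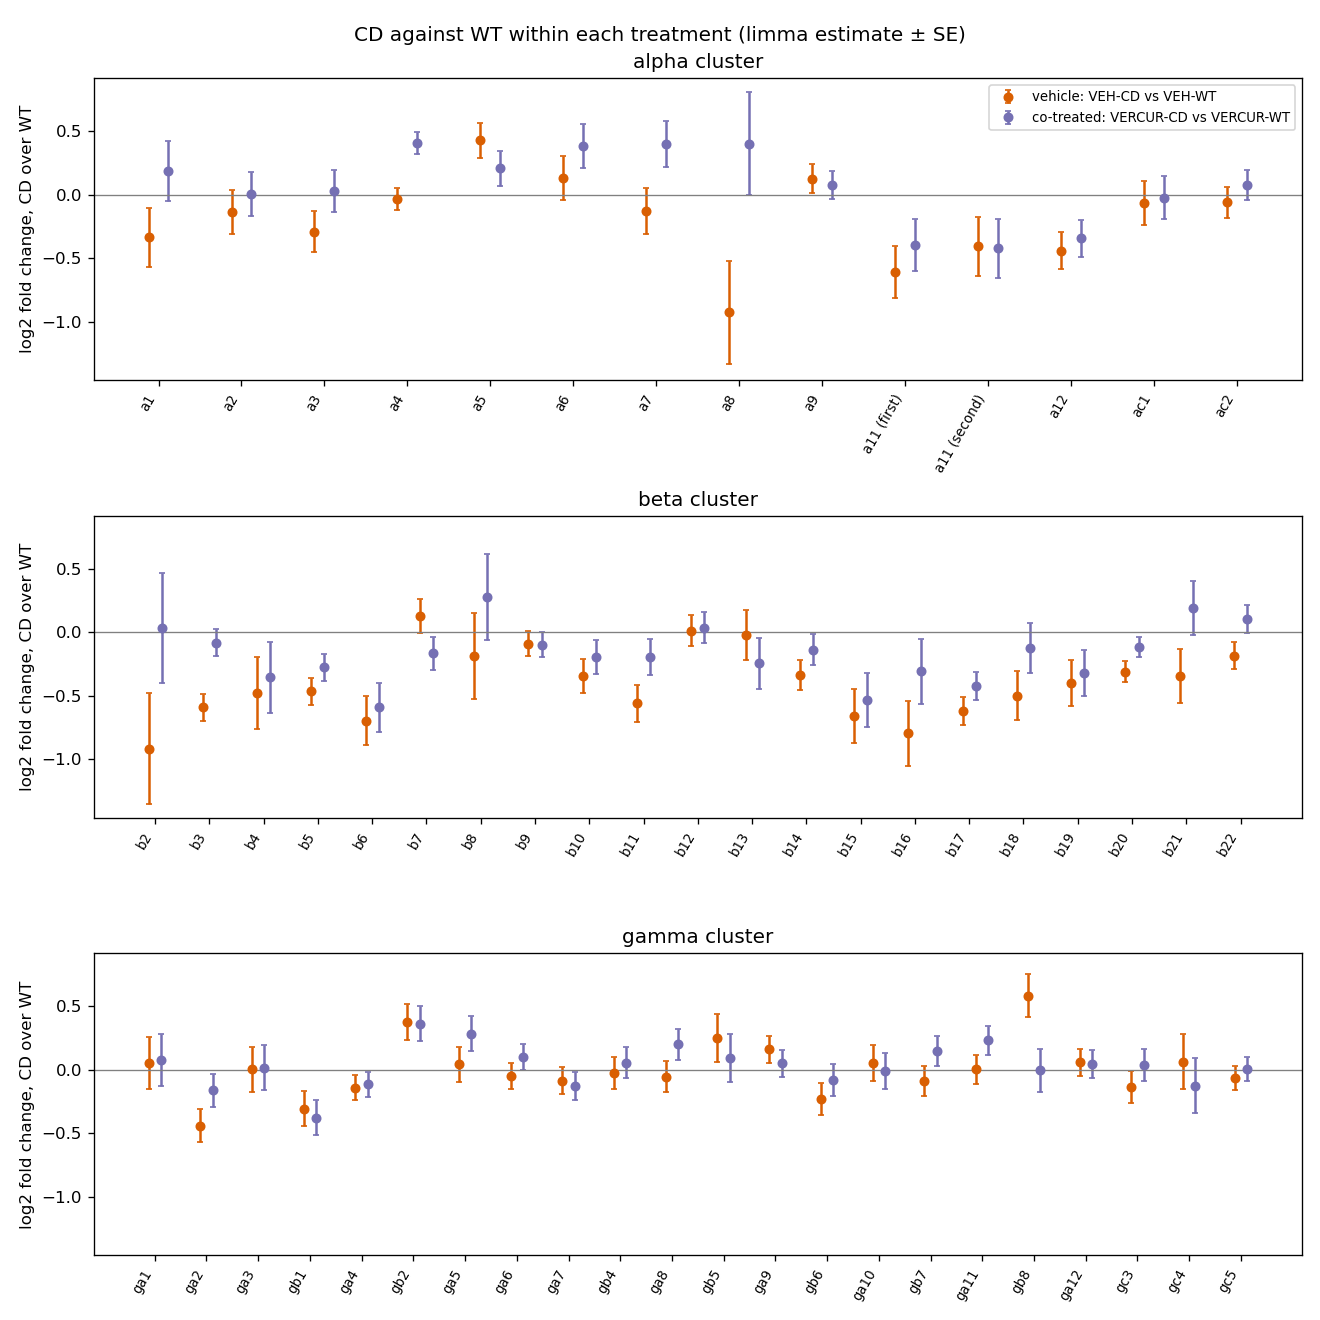
log2 fold change of CD over WT mice under vehicle (orange) and under co-treatment (violet) for each member along each cluster, as limma's estimate with its SE. Beta genes lie mostly below 0 in both, the last variable alpha genes (both Pcdha11 genes and Pcdha12) lie below 0 in both, and C-type genes lie near 0.

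The alpha cluster was divided under co-treatment, whereas 11 of its 14 genes were below 0 under vehicle. The 3 variable genes nearest its C-type genes, namely both genes named Pcdha11 and Pcdha12, were below 0 in both genotype comparisons. Pcdha12, the most abundant variable alpha gene, had 1107 ± 73.4 normalized counts in VEH-WT mice, 825 ± 173 in VEH-CD mice, 1085 ± 136 in VERCUR-WT mice and 857 ± 125 in VERCUR-CD mice (SD, n = 3). Co-treated CD mice lay between 715 and 951 and co-treated WT mice between 962 and 1231, without overlap, at a log2 fold change of -0.34 (SE 0.15, adjusted p = 1.00). For Pcdha11 (ENSMUSG00000007440) the log2 fold changes were -0.61 under vehicle and -0.39 under co-treatment, and for Pcdha11 (ENSMUSG00000102206) -0.41 and -0.42. The values of ENSMUSG00000102206 are uncertain, since most windows of its first exon occur in transcripts of other genes.

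Genes at the other end of the alpha cluster tended above 0 in co-treated CD mice, and 10 of the 14 alpha genes were above 0 there, against 3 of 14 under vehicle. That tendency rested on VERCUR-CD mouse 2, without which 8 of 14 alpha genes were below 0. Pcdha4 had the smallest p value of all members in that comparison. It had 571, 564 and 522 normalized counts in VERCUR-WT mice and 661, 807 and 733 in VERCUR-CD mice, a fold of 1.325 (log2 fold change 0.41, SE 0.09, unadjusted p = 0.000448, adjusted p = 0.178 in limma's test). Pcdha7 also had groups that did not overlap, with 374 ± 62.6 and 490 ± 33.8 normalized counts (SD, n = 3, log2 fold change 0.40, adjusted p = 1.00). The reads of Pcdha4 cannot be told apart from those of other annotated genes that cover its exons.

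Pcdha8 was too low for a firm comparison. Its normalized counts were 75.1, 33.5 and 48.7 in VEH-WT mice, 17.1, 27.4 and 35.9 in VEH-CD mice, 9.5, 27.8 and 12.1 in VERCUR-WT mice, and 15.7, 21.6 and 23.1 in VERCUR-CD mice. VEH-WT mice were above every co-treated mouse, and the spread within groups was wide.

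The median of the gamma cluster lay near 0 in both genotype comparisons, while single gamma genes lay further away. Under vehicle the extremes were Pcdhgb8 (log2 fold change 0.58) and Pcdhga2 (-0.44), and neither was called. A gamma-B gene stood at either extreme under co-treatment. Pcdhgb2 was above 0 in both comparisons, at 624 ± 41.1 normalized counts in VEH-WT mice, 808 ± 23.0 in VEH-CD mice, 700 ± 140 in VERCUR-WT mice and 898 ± 166 in VERCUR-CD mice (SD, n = 3). Under co-treatment its log2 fold change was 0.36 (SE 0.14, adjusted p = 1.00). Pcdhgb1, also a gamma-B gene, was below 0 in both. It had 762, 778 and 776 normalized counts in VERCUR-WT mice and 453, 742 and 626 in VERCUR-CD mice, without overlap, at a log2 fold change of -0.38 (SE 0.14, adjusted p = 1.00). In all, 2 alpha genes and no beta or gamma gene were higher without overlap in co-treated CD mice (3.91% of all genes), and 1 alpha, 2 beta and 1 gamma gene were lower (3.83% of all genes).

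The C-type genes, which held 54.3% of the members' normalized counts, kept within 0.14 of 0 on the log2 scale in both genotype comparisons. None had an unadjusted p under 0.05 in limma's test in any of the 5 other comparisons than the vehicle one. Pcdhgc5 averaged 10843 ± 582 normalized counts in VEH-WT mice, 10404 ± 1200 in VEH-CD mice, 10926 ± 415 in VERCUR-WT mice and 11019 ± 1410 in VERCUR-CD mice (SD, n = 3). For Pcdhgc4 the groups were as close, except that VERCUR-CD mouse 2 had 5567 normalized counts where the other 11 mice had at least 8622. The same mouse had the highest values of Pcdhgc3 (8052), Pcdhgc5 (12492) and Pcdhac2 (5081). Pcdhac1 stayed between 289 and 461 normalized counts in all mice.

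**Figure D4:**
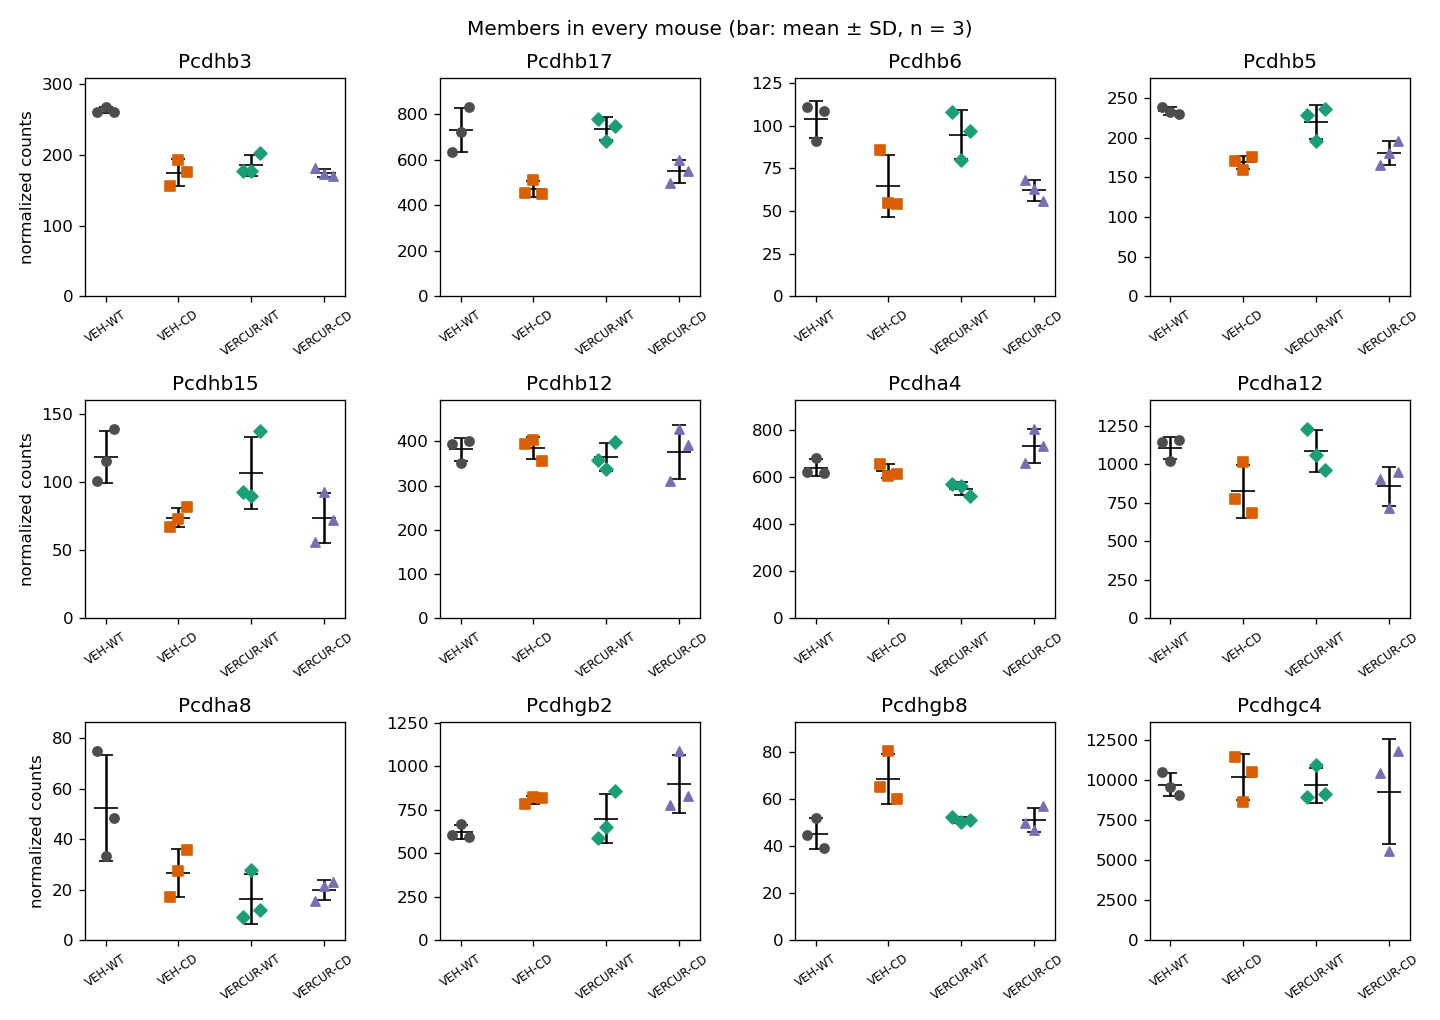
Normalized counts of 12 members in each mouse of the 4 groups, with the group mean and SD (n = 3) and axes from 0. Pcdhb17 and Pcdhb6 are lower in CD mice without overlap within each treatment, and Pcdhb5 is lower on average, with overlap under co-treatment. Pcdhb3 is high in VEH-WT mice alone, Pcdhb12 is level in all groups, and 1 VERCUR-CD mouse (5567) sits below all others for Pcdhgc4.

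Co-treatment within a genotype moved no member past the threshold. For VERCUR-CD against VEH-CD mice, limma called 0% of all genes and no member, and 3 members had an unadjusted p under 0.05 (Pcdha4, Pcdhgb8 and Pcdhga5), against 3.54% of all genes. The medians were 0.098 in the alpha cluster, 0.098 in the beta cluster and 0.038 in the gamma cluster, and 0.003 over all genes. Without VERCUR-CD mouse 2 they turned to -0.025, -0.010 and -0.011, and without VEH-CD mouse 1 the gamma median was -0.028. Without overlap, Pcdha4 and Pcdhb20 were higher in VERCUR-CD mice (3.71% of all genes) and Pcdhgb8 was lower (4.63% of all genes). Pcdhb20 did not pass, at 388 ± 6.87 in VEH-CD and 416 ± 19.2 normalized counts in VERCUR-CD mice (SD, n = 3, adjusted p = 0.867 in limma's test). These values share the VEH-CD mice with the vehicle comparison.

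For VERCUR-WT against VEH-WT mice the call rate was again 0% of all genes and no member. The members with an unadjusted p under 0.05 were Pcdhb3 (log2 fold change -0.51, SE 0.11, adjusted p = 0.742), Pcdha8 (-1.68, SE 0.41, adjusted p = 0.867) and Pcdha4 (-0.22, SE 0.09, adjusted p = 0.944), against 5.22% of all genes. Beta genes had a median of -0.097, alpha genes of -0.066 and gamma genes of -0.030, against -0.001 over all genes. With each mouse left out the beta median ranged from -0.129 (without VEH-WT mouse 2) to -0.039 (without VEH-WT mouse 3), and the gamma median reached 0.020 without VERCUR-WT mouse 2 and 0.014 without VEH-WT mouse 3. Lower without overlap in VERCUR-WT mice were Pcdha4, Pcdha8 and Pcdhb3 (5.25% of all genes), and higher were Pcdhb7 and Pcdhgb1 (4.48% of all genes). These values share the VEH-WT mice, with their high immediate early genes, with the vehicle comparison.

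Set against VEH-WT mice, VERCUR-CD mice still had lower beta values, with 18 of 21 beta genes below 0 and a median of -0.306, beside 0.029 in the alpha cluster, 0.007 in the gamma cluster and 0.002 over all genes. No member was called in this comparison, where limma called 0.199% of all genes, and 16 members had an unadjusted p under 0.05, against 8.68% of all genes. Pcdhb3 came closest, at a fold of 0.665 and an adjusted p of 0.0526. For Pcdhb17 the log2 fold change was -0.41 and for Pcdhb6 -0.72. This comparison shares the VEH-WT mice with the vehicle comparison and changes genotype and treatment at once.

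No member passed the test of the interaction of genotype and treatment, nor did any other gene (0%), and 4 members had an unadjusted p under 0.05 (Pcdha4, Pcdhb3, Pcdha8 and Pcdhgb8), against 6.05% of all genes. The smallest adjusted p of a member was 0.816. Of the beta genes 18 of 21 were above 0, with a median of 0.195, where a value above 0 means that the log2 fold change of CD over WT was higher under co-treatment than under vehicle. The interaction subtracts the vehicle contrast that singled out the family, in which 19 of 21 beta genes were below 0, so this count is a description and not independent of that choice. In an exact permutation test, 3 mice against 3 cannot go below p = 0.1, so none was run for single members.

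Among other genes, listed by role beside the clustered protocadherins, Baz1b was the only one called between co-treated CD and WT mice. Of 23 measured genes for promoter and chromatin regulation (CTCF, cohesin subunits, DNA methyltransferases, SETDB1, SMCHD1 and others), limma called 1 between co-treated CD and WT mice. That was Baz1b, a chromatin remodeller gene inside the deleted interval, of which CD mice lack a copy. It was at 5273 ± 429 normalized counts in VERCUR-WT mice and 2499 ± 124 in VERCUR-CD mice (SD, n = 3, log2 fold change -1.07, SE 0.08, adjusted p = 1.4e-05 in limma's test). A role of Baz1b at these clusters was not tested. Ctcf (0.06, SE 0.06), Rad21 (0.16, SE 0.10), a cohesin subunit, and Smchd1 (0.04, SE 0.10), which takes part in silencing of the clusters, did not pass. The median of the list between co-treated CD and WT mice was 0.070, with 17 of 23 genes above 0 and a highest value of 0.51. Under vehicle Dnmt3a, a DNA methyltransferase, was at -0.26, with a median of the list at -0.089 and 17 of 23 genes below 0.

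Neither the 23 partners and signalling genes nor the 6 genes for proteolytic processing held a call between co-treated CD and WT mice, and their medians were 0.031 and -0.042. Abi1 (0.17), a subunit of the WAVE complex that some protocadherins recruit, and Nlgn1 (0.24), a synaptic adhesion partner, had an unadjusted p under 0.05 and an adjusted p of 1.00 in limma's test. The 12 non-clustered protocadherins had a median of 0.118, with Pcdh9 (0.31) the only one with an unadjusted p under 0.05. Of 17 genes next to the clusters on the chromosome none was called, and their median was -0.006. Under vehicle the medians of the non-clustered protocadherins and of the neighbouring genes were -0.002 and 0.024.

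Marker lists of cell types and of neuronal activity were read beside the beta values. Under vehicle, 5 interneuron markers had a median of -0.196 and 5 of 5 below 0, with sums from 40083 to 44466 normalized counts in VEH-WT mice and from 35773 to 39090 in VEH-CD mice. In co-treated mice the interneuron median was -0.058, with sums from 36913 to 40765 in WT and from 37096 to 38179 in CD mice. Oligodendrocyte markers had medians of -0.190 and 0.264 in the same order, and markers of pyramidal neurons -0.019 and -0.048. Immediate early genes had a median of -1.15 under vehicle, with 10 of 10 below 0, and of 0.107 under co-treatment, with 4 of 10 below 0. The 9 other lists had medians from -0.255 (choroid plexus) to 0.442 (red blood cells) under vehicle and from -0.222 (meningeal fibroblasts) to 0.158 (oligodendrocyte precursors) under co-treatment. No marker of these lists was at 0 in all mice, and none was called. Between co-treated and vehicle mice, striatal markers had medians of -0.888 in CD and -0.644 in WT mice, with 6 of 6 below 0 in each. Their sums overlapped, from 7343 to 32831 normalized counts in VERCUR-WT mice and from 14637 to 28824 in VEH-WT mice. Oligodendrocyte markers had medians of -0.079 in CD and -0.523 in WT mice, and immediate early genes 0.569 and -0.795. The part of these lists in the members' values was not tested. The part of interneuron markers and immediate early genes in the beta values under vehicle was not tested.

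The genes most like Pcdhb17 over the 12 mice, by Pearson's r of log2(normalized count + 1) across all genes tested, were Cit (r = 0.958), 6820431F20Rik (0.942) and Prss50 (0.912), and among the members Pcdhb16 (0.884), Pcdhb5 (0.854) and Pcdhb14 (0.847). For Pcdhb3 they were Cdr2l (0.929), Gatad2a (0.928) and Fam43a (0.918), and among the members Pcdhb11 (0.768), Pcdhb10 (0.716) and Pcdhgb6 (0.704). These values describe likeness over mice of all 4 groups and are the highest of many, so they carry no test.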

How the data were processed

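RNA from the cortex of 12 mice, 3 per group, was sequenced as paired reads of 100 nucleotides. The authors used STAR 2.5.3a and GRCm38 for mapping, and the deposited values are their normalized counts, that is reads per gene over a factor for each mouse. The counting program, its use of strand and the annotation release are not given in the sources used here. The low values of each mouse were whole multiples of 1 step (within 0.1 of a step), which gave the depth. A further 2 deposited tables, with the authors' relative expression of genes picked as changed or as recovered, were not used.

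The members and gene lists were chosen with earlier results of these data known. With limma 3.58.1 in R 4.3.3, a model of 4 group means over all 12 mice, with an intensity trend, was fitted to the log2 of normalized counts with a pseudocount of 1. It took in the 17111 genes that averaged 10 or more, all 57 members among them. The two-sided p values were corrected by Benjamini and Hochberg's method across these genes. Calls required an adjusted p below 0.05 together with a change of over 25%, and for the interaction the adjusted p only. Members named are those called, the C-types, Pcdhb3, Pcdhb17, Pcdhb6, the 3 highest and 3 lowest per kb of each cluster, and the 2 largest changes per cluster and comparison. Any other was picked after its values were seen. The code was tested on simulated data. Positions and lengths come from GENCODE M21.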

Additional observations from a re-analysis of the deposited data

Results flagged for a closer look

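For Pcdha4 the co-treated mice lay on opposite sides of the vehicle mice in the 2 genotypes. All 3 VERCUR-CD mice (661, 807 and 733 normalized counts) were above all 3 VEH-CD mice (659, 606 and 616), and all 3 VERCUR-WT mice (571, 564 and 522) were below all 3 VEH-WT mice (622, 684 and 621). The interaction was 0.44 on the log2 scale (SE 0.12, unadjusted p = 0.00335), and its adjusted p in limma's test was 0.816, so it did not pass the threshold. Other annotated genes cover most exonic bases of Pcdha4.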

How the results depend on the processing

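Between VEH-CD and VEH-WT mice the 2 calls among members depended on the setting. Quantile normalization left 1 (Pcdhb17), a fit with no intensity trend left 1 (Pcdhb3), and a fit of only the groups compared left 0. With each mouse left out, 0 to 2 were called, with 2 only without VEH-CD mouse 2 or VERCUR-CD mouse 2, and 0 without VEH-WT mouse 2 or 3, VEH-CD mouse 1 or 3, VERCUR-WT mouse 1 or VERCUR-CD mouse 3. Between VERCUR-CD and VEH-WT mice Pcdhb3 was called, as 1 member, with a pseudocount of 0.1, a mean of at least 50, no intensity trend, or without VEH-CD mouse 1 or 2. With the replicate block, 0 members were called in each comparison. Mice of the same number had correlations of their deviations from group means of -0.347 to 0.267, and mice of other numbers of -0.235 to 0.325, so the numbers were not taken to pair mice.

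With each mouse left out, the medians between co-treated CD and WT mice ranged from -0.062 to 0.166 (alpha) and from -0.064 to 0.119 (gamma), with the lowest value without VERCUR-CD mouse 2 and the highest without VERCUR-CD mouse 1. The ranges were -0.025 to 0.197 (alpha), -0.010 to 0.159 (beta) and -0.028 to 0.113 (gamma) for VERCUR-CD against VEH-CD mice, -0.169 to -0.026 (alpha), -0.129 to -0.039 (beta) and -0.041 to 0.020 (gamma) for VERCUR-WT against VEH-WT mice, -0.099 to 0.134 (alpha) and -0.373 to -0.138 (beta) for VERCUR-CD against VEH-WT mice, and -0.041 to 0.135 (gamma) for the interaction.

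The study names a correction by coefficient of variation but does not describe how it was done. An alternative, a guess at that step, was chosen after seeing the data. In it, the value farthest from the median was removed in each group with a coefficient of variation of 20% or more. This removed 48 of 684 member values and narrows the spread by construction. It called 14 members between VEH-CD and VEH-WT mice (5.68% of all genes), 8 between VERCUR-CD and VERCUR-WT (2.62%), 3 between VERCUR-CD and VEH-CD (1.41%), 2 between VERCUR-WT and VEH-WT (3.79%), 10 between VERCUR-CD and VEH-WT (4.91%) and 1 in the interaction (2.88%). The alpha median of VERCUR-WT against VEH-WT mice was -0.195. A count test by edgeR on reads recovered from the steps was not run.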
